A study of Homo sapiens with 65 samples.

Results

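The comparison set day 2 against day 0 of differentiation towards haematopoietic mesoderm in a human embryonic stem cell line whose RUNX1 gene had been disrupted. Its 8 libraries, 4 of day 2 and 4 of day 0, were chosen by their titles from the 65 libraries of the series, and no measured value entered the choice. The starting material was H9, an established human embryonic stem cell line, carrying mCHERRY at 1 SOX17 allele and GFP at 1 RUNX1C allele. The derivative called KO here is RUNX1 -/-, with the DNA binding domain deleted by CRISPR editing, and the parental reporter line is called WT. The KO libraries thus share both reporters and the deletion, and the labels do not say how many edited clones were used.

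The day 2 KO cells had spent 2 days in STAPEL medium. It held BMP4 at 20 ng/ml, activin A at 7.5 ng/ml, VEGF at 25 ng/ml and FGF2 at 10 ng/ml. SCF was present too, at a dose not reported here. The inhibitor of activin and NODAL receptors SB431542 and the WNT pathway agonist CHIR99021, both at 3 µM, were given from day 2 to day 4 according to the labels, so that day 2 is the start of that interval. The day 0 KO cells were the undifferentiated culture, with the same medium entry in their labels. All 8 samples were unsorted, and total RNA was made into TruSeq libraries. The WT line, with 4 libraries of day 2 and 4 of day 0 from the same protocol, served for the comparison of changes at the end. The 8 KO libraries held 12654552 to 15969418 counts. The labels do not say whether replicates were separate cultures, so p-values measure the spread between libraries, which may be technical.

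In the embryo, cells of the pluripotent epiblast pass through the primitive streak under NODAL, WNT and BMP signals and leave it as mesoderm or endoderm. They lose epithelial junctions on the way, switch off the pluripotency network and switch on T-box, bHLH and GATA transcription factors, while HOX genes start to be transcribed from the anterior end of each cluster onwards. Culture of human embryonic stem cells with BMP4 and activin A is used to copy this step. RUNX1, which encodes a DNA-binding transcription factor with a Runt domain, is best known for a later step, the formation of blood from endothelium.

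The culture labels were first checked against 3 marker genes. TBXT, the T-box factor also known as Brachyury that marks the primitive streak, stood at 292, 238, 218 and 488 CPM (counts scaled to a common library total, replicates 1 to 4) in the day 2 KO libraries, against 0.0699, 0.133, 0.0733 and 0 CPM at day 0. MESP1, a bHLH factor of the mesoderm leaving the streak, stood at 149, 143, 120 and 132 CPM at day 2, against 0, 0.133, 0.0733 and 0.0769 CPM at day 0. SOX2, a core pluripotency and neural factor, had 0.313, 0.227, 0.0766 and 0 CPM at day 2, against 314, 185, 201 and 185 CPM at day 0. For none of these genes did the libraries of the 2 days come near each other. The log2 fold changes, day 2 over day 0, were 11.92 ± 0.63 for TBXT (edgeR adjusted p = 1.85e-12), 10.73 ± 0.44 for MESP1 (edgeR adjusted p = 3.87e-14) and -10.42 ± 0.48 for SOX2 (edgeR adjusted p = 2.16e-13, and -11.08 without day 2 replicate 1). The value after ± is the standard error, and the adjusted p is from the quasi-likelihood F test of edgeR with Benjamini-Hochberg adjustment over all 21612 genes tested. On GRCh38 these genes lie at chr6:166157656-166168700, strand minus (TBXT), chr15:89748661-89751310, strand minus (MESP1) and chr3:181711924-181714436, strand plus (SOX2). In RNA of whole cultures, fewer cells of a type and less RNA per cell cannot be told apart.

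The genotype entries of the labels disagree with the titles for day 2, where the title says KO and the entry for the genetic modification leaves out the deletion. HSD17B7P2, a transcribed pseudogene that had differed between these lines in an earlier account of the data, had 0.188, 0, 0 and 0.0606 CPM in the day 2 KO libraries and 0.14, 0.0666, 0 and 0 CPM in the day 0 KO libraries. In the WT line it had 0.626, 0.38, 0.39 and 0.465 CPM at day 2, against 0.527, 0.299, 0.5 and 0.292 CPM at day 0. The gene was singled out for that difference, and its counts were few, at 4 and 3 in the KO groups of day 2 and day 0 and 23 and 24 in the WT groups, so these values are a description and no check of the titles. RUNX1 itself checks nothing here, because a gene count includes the exons outside the deleted domain.

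The regulatory sequences in front of 4 genes are shown, 3 of them raised at day 2 and the other a member of the pluripotency network that fell. The 4 are examples in which a motif match was present, and do not stand for all genes described below. Each is the 250 bases before the RefSeq start of the gene on GRCh38.p14, 5′ to 3′ along the strand of the gene, and capitals mark matches to 3 motifs searched on both strands. The motifs were the TCF/LEF word ATCAAAG of the WNT pathway, the FOXH1 word AATCCACA of the NODAL pathway, and the composite of a SOX and an OCT word known as the SOX-OCT element. In none of the 4 windows do matches overlap.
MIXL1, chr1:226223414-226223663, strand plus: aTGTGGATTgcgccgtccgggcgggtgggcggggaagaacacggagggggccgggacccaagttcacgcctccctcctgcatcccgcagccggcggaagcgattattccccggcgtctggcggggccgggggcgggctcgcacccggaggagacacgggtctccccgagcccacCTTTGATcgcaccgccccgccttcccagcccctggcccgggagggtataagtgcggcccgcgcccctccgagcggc
SP5, chr2:170715087-170715336, strand plus: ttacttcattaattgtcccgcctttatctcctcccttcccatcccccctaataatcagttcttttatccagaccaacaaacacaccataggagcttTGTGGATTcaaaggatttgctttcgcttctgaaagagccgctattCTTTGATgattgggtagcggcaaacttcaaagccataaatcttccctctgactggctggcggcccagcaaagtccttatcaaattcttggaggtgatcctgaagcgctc
HAND1, chr5:154478228-154478477, strand minus: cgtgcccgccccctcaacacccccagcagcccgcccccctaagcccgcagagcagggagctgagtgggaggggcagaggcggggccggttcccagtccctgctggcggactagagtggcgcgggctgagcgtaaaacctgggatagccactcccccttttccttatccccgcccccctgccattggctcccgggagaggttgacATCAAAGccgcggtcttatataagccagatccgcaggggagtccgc
NANOG, chr12:7789152-7789401, strand plus: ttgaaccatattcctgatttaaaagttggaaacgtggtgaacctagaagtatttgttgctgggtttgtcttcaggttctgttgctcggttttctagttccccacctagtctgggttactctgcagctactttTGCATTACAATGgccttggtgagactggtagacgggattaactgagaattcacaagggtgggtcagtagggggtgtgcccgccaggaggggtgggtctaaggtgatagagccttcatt

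MIXL1 had a TCF/LEF match 76 bases and a FOXH1 match 249 bases before the start, and SP5 had them 109 and 154 bases before it. HAND1 had a TCF/LEF match at 46 bases, and NANOG the SOX-OCT composite at 118 bases. Of the 35116 promoter windows of the same length in the table, 2.26% held the TCF/LEF word, 0.709% the FOXH1 word and 0.0285% the composite. Of the 242 genes in the lists used here that matched the table, 6 held the TCF/LEF word (2.48%), 6 the FOXH1 word (2.48%) and 2, NANOG and NRARP, the composite (0.826%). The list genes with the TCF/LEF word were higher at day 2 (ACVR1B, HAND1, MIXL1 and SP5) or did not pass an adjusted p under 0.05 (FGF18 and IL17RD). Those with the FOXH1 word were higher (MESP2, MIXL1 and SP5), lower (BMPR1B) or did not pass (PRRX1 and ZMAT3). NANOG and NRARP were lower. A match is a description of letters, and binding was not measured.

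Across the whole transcriptome 4658 genes were higher and 4697 lower in day 2 KO cells than in day 0 KO cells at an adjusted p under 0.05, which is 21.6% and 21.7% of the genes tested. With a change of at least 2-fold as a further condition, 2270 genes (10.5%) were higher and 2794 (12.9%) lower. The 4 day 2 libraries all lay above the 4 day 0 libraries for 5035 genes (23.3%) and all below them for 4973 genes (23%). The median absolute log2 fold change of the genes called was 1.11, and the median over all tested genes was 0.00094. Against this background, 27 lists of genes with known roles, holding 363 genes of which 344 passed the filter on low counts, are described below. Their members were tested together with all other genes. Each count of members called stands beside the shares of 21.6% higher and 21.7% lower. Each count without overlap stands beside 23.3% and 23%.

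**Figure D1:**
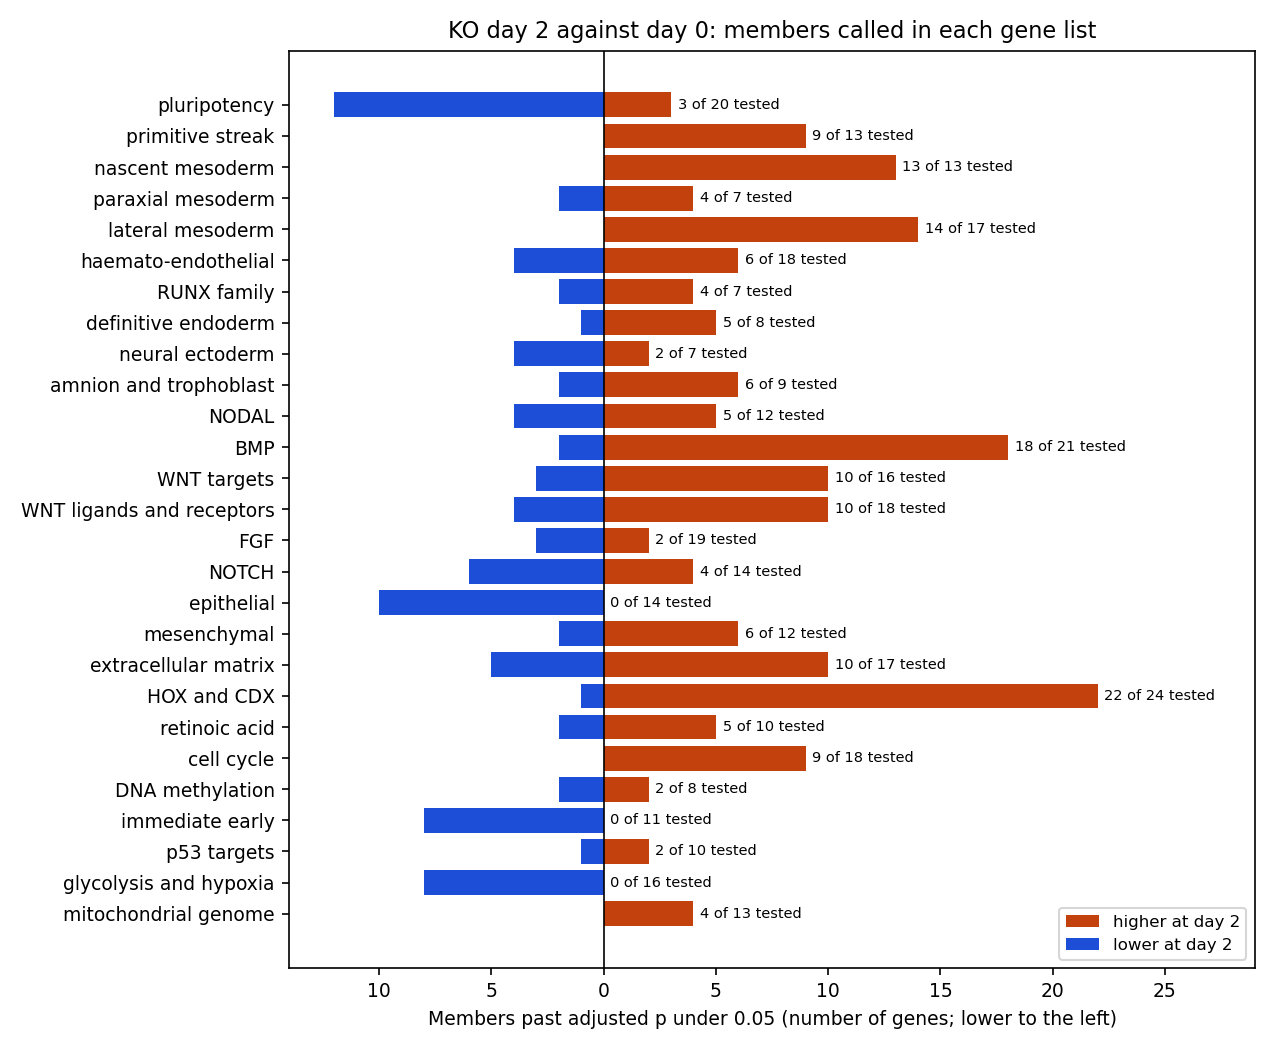
Number of members of each gene list past an adjusted p under 0.05 in KO cells, day 2 against day 0, with members higher at day 2 to the right and members lower at day 2 to the left; the text beside each bar gives the number higher and the number tested. HOX and CDX genes (22 of 24), BMP genes (18 of 21), lateral mesoderm (14 of 17) and nascent mesoderm (13 of 13) lean to the right, and epithelial, glycolysis and immediate early genes lie wholly to the left.

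Within both groups 1 library stood apart. Replicate 4 of day 2 differed by more than 1 log2 unit from the mean of the other day 2 KO libraries in 712 of 18058 genes, against 140 to 301 genes for the others, and replicate 1 of day 0 did so in 1491 genes, against 150 to 214. The chi-square per gene between pairs of libraries was 13.94 to 20.5 for pairs with that day 2 library and 5.94 to 6.16 for the other day 2 pairs, and 32.96 to 39.09 for pairs with that day 0 library and 4.34 to 5.65 for the other day 0 pairs. Without both libraries together, 4462 genes were higher and 4112 lower. The counts of list members below are those of all 8 libraries, and the value without both libraries is given where it differs by more than 1.5 times.

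Genes of the primitive streak were among the most strongly raised. Of the 14 genes listed, 13 were tested, 9 were higher at day 2 and 0 lower, with a median log2 fold change of 7.75. MIXL1, a homeobox factor of streak mesendoderm whose promoter is shown above, reached 974, 932, 1050 and 916 CPM at day 2, against 2.52, 4.93, 3.66 and 4.15 CPM at day 0, and the lowest day 2 library lay far above the highest of day 0. Its log2 fold change was 7.98 ± 0.41 (edgeR adjusted p = 1.34e-12), and per length it had 486 ± 28.3 RPKM at day 2 and 1.91 ± 0.514 RPKM at day 0 (mean ± SD, n = 4 each).

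EOMES, a T-box factor upstream of mesendoderm, had 214, 289, 288 and 263 CPM at day 2, against 2.31, 0.0666, 0.147 and 0.0769 CPM at day 0. The groups were far apart (log2 fold change 8.62 ± 0.80, edgeR adjusted p = 1.19e-08), though replicate 1 held most of the day 0 signal, and without it the log2 fold change was 11.30. EVX1, a homeobox gene of the posterior streak, had 345, 280, 306 and 290 CPM at day 2, against 0, 0.0666, 0 and 0 CPM at day 0. Since EVX1 had a single read at day 0, its change is a count ratio of 17100-fold (95% counting interval 3080 to 677000). GSC, a homeobox gene of the anterior streak and organizer, had 14, 14.9, 20.8 and 7.4 CPM at day 2, against 0, 0, 0.147 and 0 CPM at day 0, a count ratio of 388-fold (95% counting interval 107 to 3210). Replicate 4 was its lowest day 2 library and still above every day 0 library.

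SP5, a zinc-finger target of WNT signalling, had 112, 94.1, 94.8 and 118 CPM at day 2, against 0.0699, 0, 0.0733 and 0 CPM at day 0, a count ratio of 2960-fold (95% counting interval 820 to 24500). LHX1, a LIM homeobox gene, had 89.3, 138, 177 and 35.7 CPM at day 2, against 0.559, 0.333, 0.952 and 0.154 CPM at day 0 (log2 fold change 7.75 ± 0.93, edgeR adjusted p = 5.42e-07). Its day 2 values spread widely, with replicate 3 highest and replicate 4 lowest, and did not overlap those of day 0. WNT3, a WNT ligand needed for the streak in the mouse, had 75.2, 94.7, 79.1 and 123 CPM at day 2, against 8.25, 6.99, 5.57 and 6.31 CPM at day 0 (log2 fold change 3.78 ± 0.29, edgeR adjusted p = 5e-10). SP8, a zinc-finger relative of SP5, was also higher (2.55 ± 0.50, edgeR adjusted p = 0.000251), at 3.45 without day 0 replicate 2 and 1.92 without both libraries that stood apart. NODAL, FOXH1 and FGF8 were among the 4 members that did not pass. NODAL, the ligand at the head of the pathway, had 88.8, 74.3, 94.7 and 152 CPM at day 2, against 88.6, 105, 80.1 and 71.4 CPM at day 0, and the libraries of the 2 days overlapped.

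All 13 nascent mesoderm genes were tested and all 13 were higher, with a median log2 fold change of 4.93. APLNR, the receptor for the peptides apelin and APELA, had 1120, 1180, 1090 and 680 CPM at day 2, against 0.21, 0.0666, 0.0733 and 0 CPM at day 0. The day 0 libraries held at most a few reads of it, and replicate 4 was the lowest at day 2. The log2 fold change was 13.35 ± 0.52 (edgeR adjusted p = 1.75e-14), the largest among list genes with more than 3 counts in both groups, and 14.14 without day 0 replicate 1. The gene that encodes its ligand APELA went the other way, with 0.751, 0.378, 1.76 and 2.24 CPM at day 2, against 187, 181, 160 and 146 CPM at day 0 (log2 fold change -7.01 ± 0.32, edgeR adjusted p = 2.16e-13).

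MSGN1, a bHLH factor of presomitic mesoderm, had 54.8, 35.2, 28 and 34.8 CPM at day 2 and no count in any day 0 library, so it was at least 724-fold higher when the day 0 group is set to a floor of 3 counts. TBX6, a T-box factor of paraxial mesoderm, had 60.7, 43.6, 36.3 and 43.4 CPM at day 2, against 2.52, 1.73, 0.879 and 1.92 CPM at day 0, without overlap. The receptor genes of this list changed less. PDGFRA, which encodes a growth factor receptor of mesoderm, had 112, 114, 85 and 59.9 CPM at day 2, against 12, 12.1, 10.6 and 11.7 CPM at day 0 (log2 fold change 2.99 ± 0.40, edgeR adjusted p = 2.38e-06). KDR, the VEGF receptor used to sort haematopoietic mesoderm, was already read at day 0, with 121, 135, 123 and 132 CPM at day 2, against 106, 54.2, 54.9 and 69.6 CPM at day 0. Its groups did not overlap, and its log2 fold change was the smallest of the list at 0.85 ± 0.27 (edgeR adjusted p = 0.0145). The KDR call was lost without day 0 replicate 2 (0.74, edgeR adjusted p = 0.0526) and without day 0 replicate 3 (0.74, edgeR adjusted p = 0.0507).

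**Figure D2:**
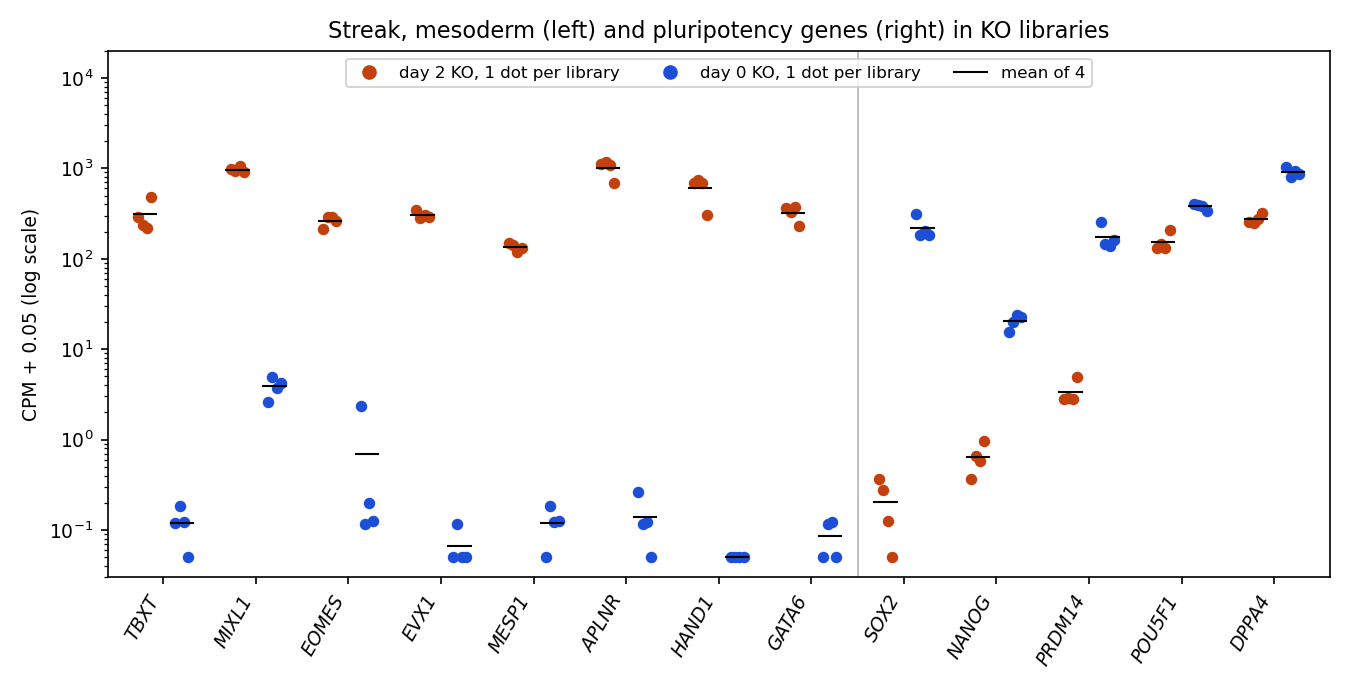
CPM plus 0.05 on a log axis for 8 streak and mesoderm genes (left) and 5 pluripotency genes (right), with 1 dot per KO library, day 2 left of day 0 for each gene and a line at the mean of 4. HAND1 has 306 to 737 CPM at day 2 and no count at day 0, while SOX2 has at most 0.313 CPM at day 2 and 185 to 314 CPM at day 0.

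The lateral mesoderm list, which covers the plate that gives rise to heart, vessels, blood and limb bud, had 14 of 17 tested genes higher and 0 lower, with a median log2 fold change of 7.39. HAND1, a bHLH factor of lateral and extraembryonic mesoderm, had 694, 737, 693 and 306 CPM at day 2 and no count in the 4 day 0 libraries. That made it at least 11100-fold higher against the floor of 3 counts. Replicate 4 held less than the other day 2 libraries, which lay close together. GATA6, a zinc-finger factor of mesoderm and endoderm, had 363, 329, 369 and 228 CPM at day 2, against 0, 0.0666, 0.0733 and 0 CPM at day 0, a count ratio of 8920-fold (95% counting interval 2470 to 73700).

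TBX3, a T-box repressor, had 561, 448, 459 and 389 CPM at day 2, against 0.0699, 1.93, 1.17 and 0.769 CPM at day 0 (log2 fold change 8.85 ± 0.48, edgeR adjusted p = 2.24e-12). GATA4, a cardiac and endodermal factor, had 53.6, 60.3, 63.1 and 24.7 CPM at day 2, against 0, 0.266, 0.147 and 0.0769 CPM at day 0 (log2 fold change 8.56 ± 0.64, edgeR adjusted p = 3.76e-10, and 9.27 without day 0 replicate 2). For each of the 3 factors GATA6, TBX3 and GATA4 replicate 4 was the lowest day 2 library, and no day 2 library came near day 0. FOXF1, a forkhead factor of splanchnic mesoderm, had 41.1, 37.1, 27 and 33.7 CPM at day 2 and no count at day 0, at least 653-fold higher against the floor. Genes known from later heart and limb development were read at a few counts. NKX2-5, a homeobox factor of the heart, had 0.849 to 2.22 CPM over the day 2 libraries, a count ratio of 44.3-fold (95% counting interval 11.9 to 371). HAND2 had 0.182 to 1.15 CPM and did not pass. MEF2C did not pass either (1.25, edgeR adjusted p = 0.0878), but did without day 2 replicate 4 (1.51, edgeR adjusted p = 0.0457), and TBX5 had no count at day 2. Day 2 replicate 4 was the lowest day 2 library in 12 of the 17 genes of this list.

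Of 10 paraxial mesoderm genes 7 were tested, with 4 higher and 2 lower, and a median log2 fold change of 4.70, or 3.67 with the genes of at most 3 counts in 1 group set at their bound or count ratio. TBX6, MSGN1, FOXC1 and HES7 were the higher ones. FOXC1 had 29.2, 24, 28 and 17.6 CPM at day 2, against 0.14, 0.0666, 0 and 0.154 CPM at day 0 (log2 fold change 7.98 ± 0.67, edgeR adjusted p = 2.27e-09), and every day 2 library exceeded every day 0 library. Its relative FOXC2, and TCF15, a bHLH factor of the forming somite, were lower. TCF15 had 1.25, 1.13, 0.536 and 0.849 CPM at day 2, against 1.12, 2.46, 2.27 and 3.23 CPM at day 0 with overlapping libraries, and its call was lost without day 0 replicate 4 (-1.01, edgeR adjusted p = 0.0589), which left 1 lower gene in the list. The paired-box gene PAX3 did not pass. The somite genes MEOX1, RIPPLY2 and UNCX did not pass the filter on low counts.

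Genes of the pluripotency network fell by very different amounts. Of 20 genes listed and tested, 12 were lower, 3 higher and 5 did not pass, with a median log2 fold change of -1.24. NANOG, the homeobox factor whose promoter with the SOX-OCT composite is shown above, had 0.313, 0.604, 0.536 and 0.909 CPM at day 2, against 15.5, 20.1, 24 and 22.4 CPM at day 0. PRDM14, a repressor of differentiation in human embryonic stem cells, had 2.75, 2.8, 2.76 and 4.91 CPM at day 2, against 252, 145, 137 and 161 CPM at day 0. In both genes the groups were well separated, and the residual day 2 signal was highest in replicate 4. The log2 fold changes were -5.09 ± 0.35 for NANOG (edgeR adjusted p = 1.22e-10) and -5.70 ± 0.33 for PRDM14 (edgeR adjusted p = 8.08e-12).

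POU5F1, which encodes OCT4, the partner of SOX2, was retained to a larger degree. It had 131, 146, 130 and 207 CPM at day 2, against 405, 390, 383 and 340 CPM at day 0 (log2 fold change -1.31 ± 0.28, edgeR adjusted p = 0.000515), with replicate 4 again the highest of day 2. POU5F1 and NANOG have processed pseudogenes, with which reads may have been shared. DPPA4, a chromatin factor of pluripotent cells, had 253, 248, 273 and 319 CPM at day 2, against 1040, 807, 945 and 860 CPM at day 0 (log2 fold change -1.74 ± 0.11, edgeR adjusted p = 1.74e-11). Other lower members were USP44, UTF1, FOXD3, TERF1, THY1, LIN28A and TDGF1, of which FOXD3 fell furthest (-7.77 ± 0.36, edgeR adjusted p = 2.72e-12). TDGF1 (-1.17 ± 0.39, edgeR adjusted p = 0.0174) lost its call without day 2 replicate 1 (-1.10, edgeR adjusted p = 0.0513). SOX2 itself fell by 11.08 on the log2 scale without day 2 replicate 1, which held most of its remaining reads.

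The 3 members that rose were LIN28B, the zinc-finger gene ZIC2 and the homeobox gene OTX2. The OTX2 call (1.16 ± 0.42, edgeR adjusted p = 0.031) was lost without day 2 replicate 2 or 3 and without day 0 replicate 3 or 4, at 0.98 to 1.08. LIN28B, an inhibitor of let-7 processing, had 364, 342, 339 and 325 CPM at day 2, against 195, 218, 244 and 190 CPM at day 0 (log2 fold change 0.69 ± 0.14, edgeR adjusted p = 0.000256), while its paralog LIN28A was lower (-0.79 ± 0.12, edgeR adjusted p = 1.91e-05). For both paralogs the groups did not overlap. ZFP42, SALL4, L1TD1 and DPPA2 did not pass. SALL4, a zinc-finger factor, had 496, 383, 301 and 321 CPM at day 2, against 334, 333, 334 and 349 CPM at day 0, and these overlapped.

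HOX and CDX genes, with cofactors such as MEIS1 and MEIS2, formed the list with the most genes raised in number. Of 24 tested, 22 were higher, 1 was lower and 1 did not pass, with a median log2 fold change of 5.08. Of these genes 10 had at most 3 counts over the 4 day 0 libraries, and with those at their count ratio the median was 5.02. CDX2, a caudal-type factor that acts on HOX genes, had 107, 55, 49.3 and 69.6 CPM at day 2, against 0.21, 0, 0 and 0 CPM at day 0, a count ratio of 1340-fold (95% counting interval 459 to 6510). At day 0 a few reads in 1 library were all that CDX2 had, while every day 2 library was high, replicate 1 most.

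Genes further along the clusters were read as well. HOXB6, in the middle of its cluster, had 99.9, 103, 109 and 17.9 CPM at day 2, against 0, 0.0666, 0 and 0.154 CPM at day 0, a count ratio of 1490-fold (95% counting interval 509 to 7210). HOXB9 had 60.1, 56.9, 44.7 and 19.5 CPM at day 2, against 0.14, 0.266, 0.22 and 0 CPM at day 0 (log2 fold change 8.06 ± 0.59, edgeR adjusted p = 2.82e-10). HOXA10 had 21.1, 19, 13.5 and 1.33 CPM at day 2, against 0, 0.133, 0.0733 and 0 CPM at day 0, a count ratio of 250-fold (95% counting interval 85.1 to 1210). In these 3 genes replicate 4 was far below the other day 2 libraries and yet above all day 0 libraries. Per length, the day 2 means were 0.372 ± 0.378 RPKM for HOXB1 at the 3′ end of the cluster, 32.3 ± 16.9 RPKM for HOXB6 and 17.9 ± 7.26 RPKM for HOXB9 (mean ± SD, n = 4 each). The HOXB1 call was lost without day 2 replicate 1, and HOXA4 did not pass.

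Day 2 replicate 4 was the lowest day 2 library in 19 of the 24 genes, but it was not the lowest for the caudal genes CDX1 and CDX2. With limma-trend on the log2 RPKM values of the authors, which compress low values, 14 of the 24 were higher. HOXA7 had 1.69, 0.907, 1.53 and 0.121 CPM at day 2, against 0.0699, 0.266, 0.44 and 0.308 CPM at day 0 with overlap, and its log2 fold change of 1.94 ± 0.76 (edgeR adjusted p = 0.044) lost its call without any 1 of the libraries but day 0 replicate 3 and day 2 replicate 4, at 1.59 to 2.03. The MEIS1 call was lost without day 0 replicate 1 or 3 or day 2 replicate 3. Neighbouring and antisense transcripts of these clusters overlap, and the sources used here do not give the strand setting of the counting, so their reads cannot be told apart.

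**Figure D3:**
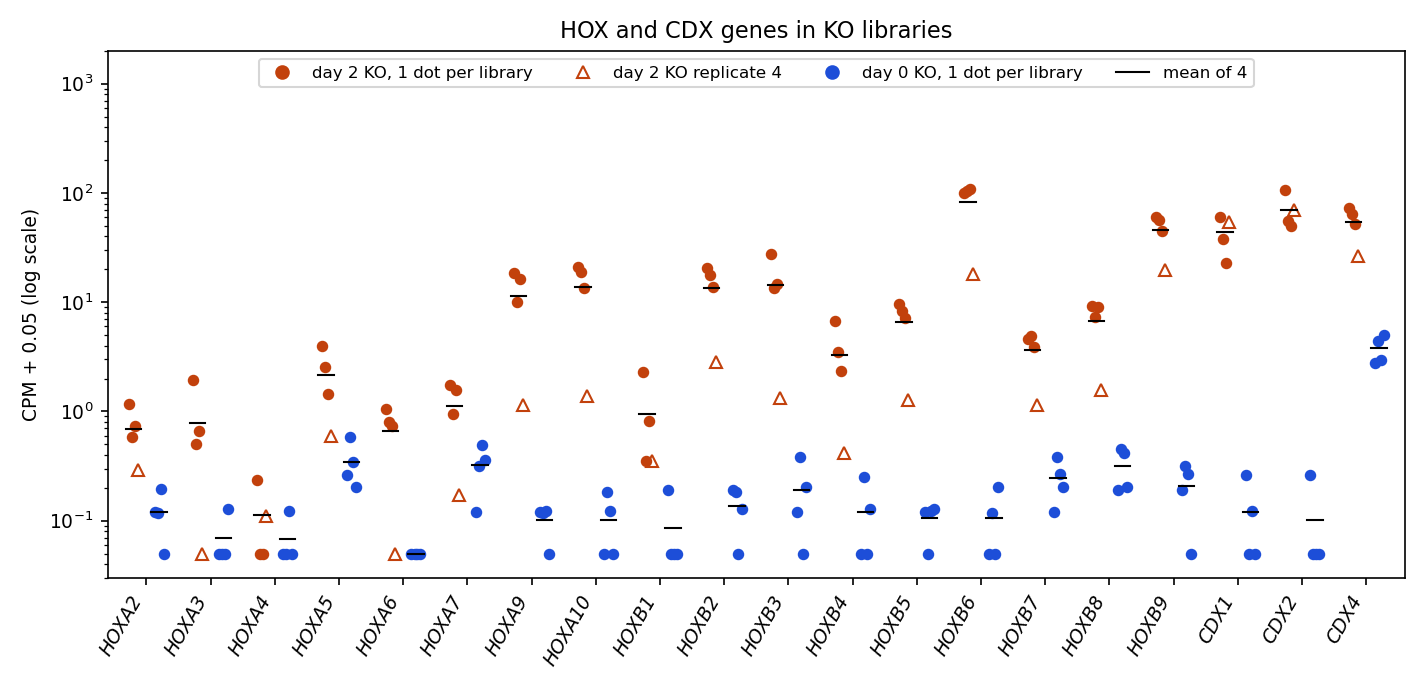
CPM plus 0.05 on a log axis for 20 HOX and CDX genes in the KO libraries, day 2 left of day 0 for each gene, with the mean of 4 as a line and day 2 replicate 4 as an open triangle. The triangle lies below the other day 2 dots for most HOX genes, as for HOXB6 with 17.9 CPM against 99.9 to 109 CPM, and among them for CDX1 and CDX2.

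More WNT pathway genes rose than fell. Of 18 ligand and receptor genes tested, 10 were higher and 4 lower, with a median log2 fold change of 2.24. Over all genes tested 21.6% were higher and 21.7% lower, so the number lower was near that share. WNT5A, a ligand of non-canonical signalling in the extending body axis, had 1030, 1050, 1080 and 564 CPM at day 2, against 0.489, 2.26, 2.86 and 2.08 CPM at day 0 (log2 fold change 8.92 ± 0.71, edgeR adjusted p = 9.88e-10). WNT8A, a canonical ligand, had 90.3, 70.2, 41.7 and 162 CPM at day 2, against 0.14, 0.0666, 0.147 and 0 CPM at day 0 (log2 fold change 9.86 ± 1.11, edgeR adjusted p = 2.02e-07). The libraries of the 2 days were far apart for both ligands, with replicate 4 the lowest of day 2 for WNT5A and the highest for WNT8A. WNT3, WNT3A, WNT5B, WNT6, the agonist RSPO3 and the receptors FZD8, FZD10 and ROR2 were higher as well.

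The 4 lower genes of that list were all receptors, FZD2, FZD5, FZD7 and LRP6. FZD7, a Frizzled receptor known from human embryonic stem cells, had 115, 158, 185 and 110 CPM at day 2, against 1320, 754, 797 and 818 CPM at day 0 (log2 fold change -2.70 ± 0.36, edgeR adjusted p = 2.72e-06). All day 2 libraries were below all of day 0, where replicate 1 was the highest. FZD5 fell by more (-4.19 ± 0.34, edgeR adjusted p = 1.27e-09).

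Of 16 WNT target and modulator genes tested, 10 were higher and 3 lower, with a median log2 fold change of 2.70. The number lower was again near the share over all genes tested (21.7%). LEF1, a nuclear effector and target, had 109, 75.4, 68 and 78.6 CPM at day 2, against 0.769, 0, 0.147 and 0.154 CPM at day 0 (log2 fold change 8.22 ± 0.49, edgeR adjusted p = 1.37e-11, and 9.63 without day 0 replicate 1). NKD1, a feedback inhibitor, had 663, 504, 472 and 347 CPM at day 2, against 7.83, 3.06, 2.86 and 3.69 CPM at day 0 (log2 fold change 6.83 ± 0.59, edgeR adjusted p = 4.33e-09, and 7.43 without both libraries that stood apart). Neither gene showed overlap between the days. The TCF members went in different directions, since LEF1 and TCF7 rose while TCF7L1 and TCF7L2 fell. TCF7L1, the repressive member of pluripotent cells, had 7.38, 6.57, 9.19 and 7.4 CPM at day 2, against 250, 172, 190 and 187 CPM at day 0 (log2 fold change -4.71 ± 0.24, edgeR adjusted p = 1.06e-12). The secreted inhibitors were also divided, DKK1, DKK4 and NOTUM being higher and SFRP1 lower, while SFRP2 and FRZB did not pass. AXIN2, a widely used target, rose by a log2 fold change of 1.19 ± 0.19 (edgeR adjusted p = 2.6e-05).

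Most genes of the BMP list were higher. Of 21 genes tested, 18 were higher and 2 lower, with a median log2 fold change of 3.30, and none of the 21 had overlapping groups. BMP4, the ligand that was also supplied in the medium, had 312, 354, 323 and 154 CPM at day 2, against 0.489, 3.19, 1.54 and 2.15 CPM at day 0 (log2 fold change 7.26 ± 0.49, edgeR adjusted p = 9.78e-11). Each day 2 library was high and replicate 4 the least so. ID2, a helix-loop-helix inhibitor and direct BMP target, had 156, 167, 180 and 147 CPM at day 2, against 2.59, 3.19, 3.15 and 3.15 CPM at day 0 (log2 fold change 5.75 ± 0.25, edgeR adjusted p = 1.16e-13). BAMBI, a decoy receptor induced by the pathway, had 428, 486, 510 and 395 CPM at day 2, against 41, 43.5, 42.2 and 39.3 CPM at day 0 (log2 fold change 3.45 ± 0.16, edgeR adjusted p = 2.5e-13). The inhibitory SMAD genes SMAD6 and SMAD7 and the targets ID1, ID3, ID4, MSX1 and MSX2 were higher too.

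Secreted BMP antagonists differed. NOG, CHRD and FST were higher, and GREM1 was lower, with 4.26, 2.04, 1.92 and 2.24 CPM at day 2, against 156, 24.9, 17.1 and 28.9 CPM at day 0 (log2 fold change -4.43 ± 0.83, edgeR adjusted p = 0.000149). The groups did not overlap, and day 0 replicate 1 was far above the other day 0 libraries. Without that library the log2 fold change of GREM1 was -3.16 (edgeR adjusted p = 0.000956). Among the receptors BMPR2 was higher (1.68 ± 0.22), BMPR1B lower (-1.47 ± 0.42), and BMPR1A did not pass.

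The NODAL and activin list was split, with 5 of 12 tested genes higher and 4 lower, where 21.6% and 21.7% of all genes tested were. LEFTY2, a feedback inhibitor and target of NODAL, had 7.13, 8.31, 22.7 and 1.76 CPM at day 2, against 954, 1010, 921 and 817 CPM at day 0. CER1, a secreted inhibitor of NODAL, BMP and WNT made by streak-derived cells, had 375, 841, 834 and 225 CPM at day 2, against 46.3, 73.6, 61.2 and 59.5 CPM at day 0. For LEFTY2 every day 2 library was far below day 0, while for CER1 every one was above, with replicates 2 and 3 the highest and replicate 4 the lowest. The log2 fold changes were -6.55 ± 0.52 for LEFTY2 (edgeR adjusted p = 9.15e-10), or -7.35 without day 2 replicate 3, and 3.24 ± 0.49 for CER1 (edgeR adjusted p = 1.34e-05). LEFTY1, GDF3 and the co-receptor TDGF1 were lower, and SMAD7 and the receptors ACVR1B and ACVR2A higher. LEFTY1 and LEFTY2 are near-identical neighbours, so the split of reads between them is uncertain.

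In the FGF list most genes did not pass, with 2 of 19 tested genes higher, 3 lower and 14 not past the threshold. Both counts lie under the shares over all genes tested (21.6% higher and 21.7% lower). FGF2, a ligand that is also a medium component, had 47, 52.7, 56.8 and 64 CPM at day 2, against 222, 263, 295 and 209 CPM at day 0 (log2 fold change -2.16 ± 0.24, edgeR adjusted p = 1.83e-07). FGF4, a ligand of the early embryo, had 41.2, 37.8, 24 and 90.7 CPM at day 2, against 1.47, 6.86, 5.06 and 6.08 CPM at day 0 (log2 fold change 3.31 ± 0.53, edgeR adjusted p = 2.33e-05, and 2.54 without both libraries that stood apart). The groups of both ligands were separate. FGF17 rose, ETV1 and FGFR2 fell, and the FGFR2 call was lost without day 0 replicate 1 (log2 fold change -1.05, edgeR adjusted p = 0.0782). Without that library, and without both libraries that stood apart, 4 genes of the list were higher. The receptor gene FGFR1 was among those 4, with 369, 297, 291 and 277 CPM at day 2, against 376, 232, 229 and 258 CPM at day 0 in overlap, and a log2 fold change of 0.17 in all 8 libraries and 0.37 without day 0 replicate 1 (edgeR adjusted p = 0.394 and 0.0437).

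Of 14 NOTCH genes tested, 4 were higher and 6 lower, against shares of 21.6% and 21.7% over all genes tested. DLL3, an atypical ligand of the early mesoderm, had 146, 108, 111 and 95.1 CPM at day 2, against 3.92, 12.4, 15.5 and 17.4 CPM at day 0 (log2 fold change 3.23 ± 0.62, edgeR adjusted p = 0.000195). HEY1, a target bHLH repressor, had 44, 41.8, 51.2 and 18.9 CPM at day 2, against 1.19, 2.2, 2.56 and 1.54 CPM at day 0 (log2 fold change 4.37 ± 0.34, edgeR adjusted p = 8.87e-10). No day 2 library of these genes fell within the day 0 range. The ligand DLL1 and the target HES1 were also higher, and JAG1, NOTCH3, HES4, HEYL, LFNG and NRARP lower. The number of lower genes was 3 without day 2 replicate 2, without day 2 replicate 3 and with limma-trend. JAG1 and LFNG lost their calls without day 0 replicate 1, at log2 fold changes of -0.54 and -0.996 (edgeR adjusted p = 0.207 and 0.309). JAG1 lost it also without any 1 day 2 library, and LFNG without day 2 replicate 2 or 3. HEYL lost its call without any 1 of 6 libraries, at -0.75 to -0.53.

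In the retinoic acid list 5 of 10 tested genes were higher and 2 lower. ALDH1A2, the synthesising enzyme of early mesoderm, had 16.3, 11.7, 13.3 and 6.97 CPM at day 2, against 0.14, 0.0666, 0.147 and 0.231 CPM at day 0, without overlap (log2 fold change 6.31 ± 0.47, edgeR adjusted p = 3.71e-10). The uptake receptor STRA6, the binding protein CRABP2 and the receptor RARG were among those that rose. The binding protein CRABP1 (-2.10 ± 0.26, edgeR adjusted p = 6.17e-07) and the reductase DHRS3 fell, and the degrading enzyme CYP26A1 did not pass.

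Epithelial genes were lower, 10 of 14 tested, with 0 higher and a median log2 fold change of -1.49. PODXL, a sialomucin of the apical surface, had 111, 120, 108 and 320 CPM at day 2, against 3900, 2970, 3070 and 3400 CPM at day 0 (log2 fold change -4.34 ± 0.52, edgeR adjusted p = 4.32e-07). All day 2 libraries were far below day 0, and replicate 4 stood above the other 3 at day 2. Replicate 4 was the highest day 2 library in all 14 genes of the list. The splicing regulators ESRP1 and ESRP2, the claudins CLDN3, CLDN6 and CLDN7, OCLN, CRB3, CDH3 and EPCAM were the other lower genes.

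Neither of the cadherin genes usually set against each other in this transition passed. CDH1, which encodes E-cadherin, had 626, 544, 657 and 735 CPM at day 2, against 368, 306, 327 and 329 CPM at day 0 (log2 fold change 0.95 ± 0.43, edgeR adjusted p = 0.0801), every day 2 library being above every day 0 library. It passed the threshold when the 8 KO libraries were fitted alone, which gave 1 higher gene in the list. CDH2, which encodes N-cadherin, had 291, 304, 288 and 310 CPM at day 2, against 161, 377, 341 and 327 CPM at day 0, with overlap (log2 fold change -0.02 ± 0.28, edgeR adjusted p = 0.967).

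Of 12 mesenchymal genes tested, 6 were higher and 2 lower. SNAI2, a repressor of epithelial genes, had 46.2, 30.2, 29 and 11.3 CPM at day 2, against 2.59, 0.333, 0.366 and 0.308 CPM at day 0 (log2 fold change 4.99 ± 0.57, edgeR adjusted p = 2.73e-07, and 6.41 without day 0 replicate 1). Its relative SNAI1 and the repressors ZEB1 and ZEB2 rose as well, as did the cadherin CDH11 (4.97 ± 0.32, edgeR adjusted p = 4.12e-11). FN1, which encodes fibronectin, had 2470, 1810, 2290 and 1780 CPM at day 2, against 377, 430, 362 and 449 CPM at day 0 (log2 fold change 2.37 ± 0.21, edgeR adjusted p = 4.93e-09). No library of day 2 fell to the day 0 level of SNAI2 or FN1, and replicate 4 was the lowest of day 2 in 9 of the 12 genes. VIM, the vimentin gene, and FOXC2 were lower. The VIM call (-0.76 ± 0.30, edgeR adjusted p = 0.0463) was lost without day 2 replicate 1, 3 or 4 and without day 0 replicate 2 or 4, at -0.84 to -0.57, which left 1 lower gene. Without both libraries that stood apart VIM lost its call too (-0.69, edgeR adjusted p = 0.0913), again leaving 1 lower gene. TWIST1, TWIST2, PRRX1 and CDH2 did not pass.

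Matrix genes moved in both directions, 10 of 17 tested being higher and 5 lower, against shares of 21.6% and 21.7% over all genes tested. HAS2, the hyaluronan synthase of gastrulating mesoderm, had 733, 726, 797 and 500 CPM at day 2, against 11.6, 9.18, 10.1 and 10.4 CPM at day 0 (log2 fold change 6.06 ± 0.51, edgeR adjusted p = 2.43e-09), with the groups far apart. COL5A1, COL5A2, COL6A1, COL1A2, COL4A5, LAMB1, LAMC1, SPARC and TNC were higher, and COL1A1, COL3A1, COL4A1, COL18A1 and LAMA5 lower. The genes for the chains of type I collagen moved apart, with log2 fold changes of 1.62 ± 0.37 for COL1A2 (edgeR adjusted p = 0.00108) and -3.45 ± 0.35 for COL1A1 (edgeR adjusted p = 5.47e-08). Without both libraries that stood apart, 3 genes were lower, COL3A1 and COL4A1 having lost their calls. COL4A1 also lost it without day 2 replicate 4 or day 0 replicate 2, 3 or 4 (-0.57 to -0.50), and SPARC without day 0 replicate 1 (0.49, edgeR adjusted p = 0.0514).

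Markers of other cell types that the culture could hold were read alongside. Of 12 definitive endoderm genes 8 were tested, 5 being higher and 1 lower, and their summed level was 319 to 1100 CPM in the day 2 libraries and 106 to 121 CPM in the day 0 libraries. SOX17, an endoderm and endothelial factor of which 1 allele carries the reporter, had 14.5, 24.9, 28.2 and 21 CPM at day 2, against 0, 0.0666, 0.0733 and 0 CPM at day 0, a count ratio of 608-fold (95% counting interval 168 to 5020). HHEX, CER1, GSC and LHX1 were the other higher genes, of which GSC and LHX1 also stand in the streak list, and KIT was the lower one. Most of the day 2 sum was CER1. FOXA2, a forkhead factor of endoderm that also stands in the streak list, had 0, 0, 0 and 0.0606 CPM at day 2, against 1.12, 0.0666, 0.44 and 0.231 CPM at day 0. HNF4A was at or near 0 with it. FOXA1, FOXA2 and HNF4A did not pass the filter, and FOXA3 and CXCR4 did not pass the test. CXCR4, a chemokine receptor, had 13.5, 13.3, 17.5 and 2.24 CPM at day 2, against 20.5, 4.39, 4.18 and 3.23 CPM at day 0, and without both libraries that stood apart it was higher (1.92, edgeR adjusted p = 0.028). The part of endoderm cells in the rise of the streak genes was not tested.

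Neural genes were mostly lower, 4 of 7 tested, with 2 higher, among 12 listed. Over all genes tested the shares were 21.7% lower and 21.6% higher. SOX3, a relative of SOX2, had 0.751, 0.68, 0.919 and 0.424 CPM at day 2, against 36.1, 29.4, 25 and 27.2 CPM at day 0 (log2 fold change -5.40 ± 0.34, edgeR adjusted p = 2.64e-11), and all day 2 libraries were near 0. NES, POU3F1 and PAX6 were lower too, OTX2 and DLX5 higher, and SOX1, SIX3, HES5 and ZIC1 did not pass the filter. The 12 genes summed to 422 to 523 CPM at day 2 and 992 to 1130 CPM at day 0, most of it from NES, the nestin gene. The OTX2 call fails as given above, which leaves 1 higher gene, and that of PAX6 (-1.51 ± 0.59, edgeR adjusted p = 0.0434) was lost without any 1 of 6 libraries, at -1.69 to -1.14.

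Of 12 amnion and trophoblast genes 9 were tested, with 6 higher and 2 lower, and their summed level was 185 to 255 CPM at day 2 and 39.5 to 101 CPM at day 0. TFAP2A, a factor of amnion, trophoblast and surface ectoderm, had 30.2, 32.3, 40.9 and 55.5 CPM at day 2, against 0.21, 0.333, 0.0733 and 0.385 CPM at day 0 (log2 fold change 7.26 ± 0.43, edgeR adjusted p = 1.15e-11). GATA3 reached 62.5 to 83.9 CPM over the day 2 libraries, against 1.05 to 1.73 CPM at day 0, and ISL1, which also stands in the lateral mesoderm list, was higher. For these genes the days did not overlap. TFAP2C and KRT7 were lower, and without both libraries that stood apart neither passed (-0.93 and -1.26, edgeR adjusted p = 0.0734 and 0.0895). CGA and ELF5, which mark trophoblast, were at or near 0 at both days. The part of amnion-like cells in the rise of HAND1, GATA6 and ISL1 was not tested.

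Haemato-endothelial genes moved in both directions. Of 20 genes listed 18 were tested, 6 being higher and 4 lower, where 21.6% and 21.7% of all genes tested were. The 20 genes summed to 98.6 to 133 CPM at day 2 and 85.1 to 99.3 CPM at day 0. GATA2, a zinc-finger factor of haematopoietic progenitors, had 48.9, 52.5, 54 and 38.9 CPM at day 2, against 1.89, 0.466, 0.952 and 0.692 CPM at day 0 (log2 fold change 5.59 ± 0.56, edgeR adjusted p = 4.23e-08, and 6.22 without both libraries that stood apart). TAL1, the bHLH factor that starts haematopoietic commitment, had 0.563, 0.529, 0.69 and 0.424 CPM at day 2, against 0.0699, 0.0666, 0 and 0 CPM at day 0, a count ratio of 15.2-fold (95% counting interval 3.89 to 131). Both genes were separated between the days, TAL1 at a few reads per library. Its partner LMO2, its paralog LYL1 and the SOX factors SOX7 and SOX17 rose too.

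CD34, which marks endothelium and blood progenitors, had 0, 0.227, 0.153 and 0.121 CPM at day 2, against 0.14, 0.0666, 0.513 and 0.231 CPM at day 0 and did not pass. TEK, an angiopoietin receptor, had 17.3, 17.8, 16.5 and 17 CPM at day 2, against 57.9, 72.1, 65 and 60.9 CPM at day 0 (log2 fold change -1.90 ± 0.25, edgeR adjusted p = 1.46e-06), and all day 2 libraries were below day 0. TIE1, ESAM and SPN fell as well. The endothelial genes CDH5 and PECAM1 had 0 to 0.23 and 0 to 0.125 CPM over the day 2 libraries and 0.21 to 0.865 and 0 to 0.14 CPM over the day 0 libraries and did not pass, and EMCN and PTPRC did not pass the filter.

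ETV2, the ETS factor that specifies haemato-endothelial progenitors, had 1.38, 2.95, 2.45 and 1.7 CPM at day 2, against 4.05, 0.2, 0.147 and 0.461 CPM at day 0, and day 0 replicate 1 held far more than the other day 0 libraries. Its log2 fold change was 0.78 ± 0.78 (edgeR adjusted p = 0.453) in all 8 libraries and 2.95 without day 0 replicate 1 (edgeR adjusted p = 0.00695). The other ETS factors FLI1 and ERG did not pass, nor did SOX18 and GFI1.

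RUNX1, the disrupted gene (chr21:34787801-36004667, strand minus), had 6.01, 7.93, 23 and 3.15 CPM at day 2, against 1.82, 0.532, 0.513 and 0.846 CPM at day 0 (log2 fold change 3.41 ± 0.84, edgeR adjusted p = 0.00211). Replicate 3 held the most at day 2 and replicate 4 the least, and the groups did not overlap. Without day 2 replicate 3 the log2 fold change was 2.60 (edgeR adjusted p = 0.0154). These reads come from the disrupted gene and give no measure of protein. With limma-trend on the log2 RPKM values of the authors the RUNX1 call was lost. In the WT line the log2 fold change was 1.93, and the difference, KO minus WT, was 1.48 ± 1.12 (edgeR unadjusted p = 0.198).

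RUNX3, a paralog, had 4.63, 5.14, 4.75 and 6.91 CPM at day 2, against 0.35, 0.799, 1.39 and 1.08 CPM at day 0 (log2 fold change 2.57 ± 0.48, edgeR adjusted p = 0.000144). CBFB, the partner of all RUNX proteins, had 90.9, 98.4, 101 and 89.1 CPM at day 2, against 52.5, 36, 42 and 31.8 CPM at day 0 (log2 fold change 1.23 ± 0.15, edgeR adjusted p = 6e-07). In both genes every day 2 library was above every day 0 library. The RUNX family list of 7 genes also holds CBFB, RUNX1T1, CBFA2T2 and CBFA2T3. In it 4 were higher and 2 lower, where 21.6% and 21.7% of all genes tested were, and neither lower gene is a RUNX gene. RUNX1T1, a corepressor gene, fell by 1.82 on the log2 scale (edgeR adjusted p = 0.000566), and CBFA2T3 fell (-1.26 ± 0.48, edgeR adjusted p = 0.0383). The CBFA2T3 call was lost without day 0 replicate 1 or 4 and without day 2 replicate 1, 2 or 3, at -1.22 to -0.99, leaving 1 lower gene. CBFA2T2 was the other higher gene, and without both libraries that stood apart its log2 fold change was 0.45 in place of 0.72 and did not pass (edgeR adjusted p = 0.0816). RUNX2 did not pass.

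Of 18 cell cycle genes tested, 9 were higher and 0 lower, by small amounts. MKI67, a proliferation marker, had 486, 447, 431 and 445 CPM at day 2, against 326, 364, 337 and 370 CPM at day 0 (log2 fold change 0.37 ± 0.09, edgeR adjusted p = 0.0015), without overlap. CCND1, a G1 cyclin and WNT target, rose more (1.13 ± 0.23, edgeR adjusted p = 0.000413), and so did the CDK inhibitor gene CDKN1C (1.16). The replication genes MCM2, PCNA and CDC6 did not pass. The CCNB1 call was lost without day 2 replicate 1, 2 or 4 and without day 0 replicate 2, 3 or 4, at 0.20 to 0.24. That of CCNA2 was lost without day 2 replicate 1 or day 0 replicate 4, at 0.32 and 0.31.

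Among 8 DNA methylation genes 2 were higher and 2 lower, near the shares over all genes tested (21.6% higher and 21.7% lower). DNMT3B, the de novo methyltransferase of pluripotent cells, had 414, 437, 422 and 571 CPM at day 2, against 3020, 2440, 2850 and 2620 CPM at day 0 (log2 fold change -2.57 ± 0.14, edgeR adjusted p = 3.22e-12). TET2, which oxidises methylcytosine, had 22.1, 17.3, 21.1 and 17.9 CPM at day 2, against 2.66, 4.79, 3.52 and 5.38 CPM at day 0 (log2 fold change 2.26 ± 0.31, edgeR adjusted p = 3.27e-06). Each was fully separated between the days, in opposite directions. DNMT3A fell and DNMT1 rose slightly, and DNMT3L, UHRF1, TET1 and TET3 did not pass.

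Immediate early genes were lower in 8 of 11 tested and higher in 0, with a median log2 fold change of -2.29. EGR1, a zinc-finger factor quickly induced by growth factors, had 3.57, 1.36, 2.91 and 3.4 CPM at day 2, against 107, 4.86, 9.23 and 24 CPM at day 0 (log2 fold change -3.68 ± 0.94, edgeR adjusted p = 0.00294). Day 0 replicate 1 stood far above the others, and it was the highest day 0 library in all 11 genes. Without that library 4 of the 11 were lower, and without both libraries that stood apart 3 were. FOS and JUN were among the 4, with log2 fold changes of -1.50 and -1.80 (edgeR adjusted p = 0.0134 and 0.00591), whereas FOSB, EGR2, IER2 and NR4A1 lost their calls, at -1.66, -0.74, -0.69 and -1.17 (edgeR adjusted p = 0.244, 0.406, 0.14 and 0.122). EGR1 was called without day 0 replicate 1 (-2.16, edgeR adjusted p = 0.0405) and not without both libraries that stood apart (-2.24, edgeR adjusted p = 0.064).

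**Figure D4:**
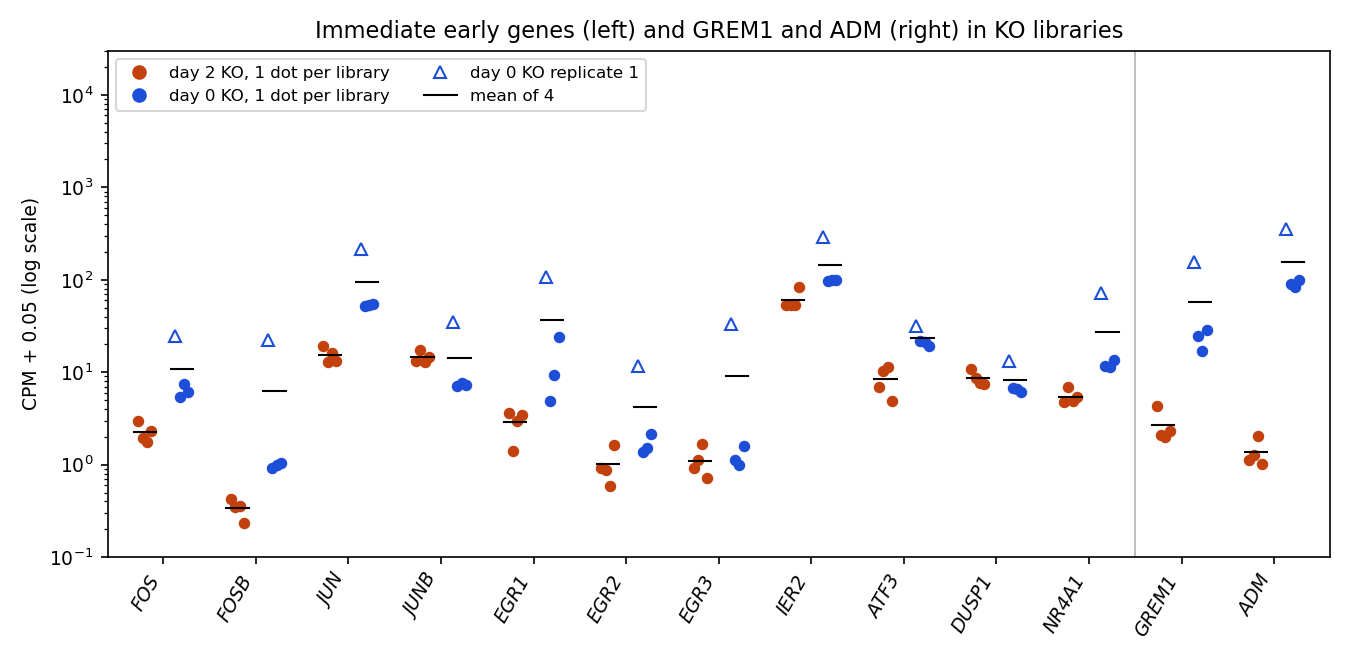
CPM plus 0.05 on a log axis for 11 immediate early genes (left) and GREM1 and ADM (right) in the KO libraries, day 2 left of day 0, with the mean of 4 as a line and day 0 replicate 1 as an open triangle. The triangle tops the day 0 libraries for each of these genes, as for EGR1 with 107 CPM against 4.86 to 24 CPM.

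Of 10 p53 target genes 2 were higher and 1 lower, no more than the shares over all genes tested (21.6% higher and 21.7% lower). CDKN1A and MDM2 did not pass. Without day 0 replicate 1, which was the lowest day 0 library in 9 of the 10 genes, 3 were lower. Without both libraries that stood apart 3 were lower as well. Of 16 glycolysis and hypoxia genes 8 were lower and 0 higher, with a median log2 fold change of -0.55. LDHA, which makes lactate, had 518, 640, 578 and 434 CPM at day 2, against 1700, 1590, 1880 and 1660 CPM at day 0 (log2 fold change -1.65 ± 0.19, edgeR adjusted p = 3.21e-07), and the days were clearly separate. PGK1, ALDOA, ENO1, GAPDH, SLC2A1, VEGFA and BNIP3 were the other lower genes, the BNIP3 call being lost without any 1 of 5 libraries. The list had 2 higher genes without day 0 replicate 1, and 1 without both libraries that stood apart.

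Of the 13 protein-coding genes of the mitochondrial genome 4 were higher and 0 lower, where 21.6% and 21.7% of all genes tested were. The libraries overlapped for all 13. Over all genes tested, 23.3% had every day 2 library above day 0 and 23% every one below. MT-ND4, a subunit of respiratory complex I, had 8440, 6580, 8090 and 5570 CPM at day 2, against 6460, 4840, 5350 and 5370 CPM at day 0 (log2 fold change 0.38 ± 0.14, edgeR adjusted p = 0.0307). Day 2 replicate 4 was the lowest day 2 library and day 0 replicate 1 the highest day 0 library in all 13. The number higher was 0 without day 2 replicate 1 or 3 or day 0 replicate 2 or 3, 2 without day 2 replicate 2 or day 0 replicate 4, 7 without day 2 replicate 4, and 8 without both libraries that stood apart. Mitochondrial reads made up 5.196, 4.082, 5.157 and 3.331% of the counts in the day 2 libraries and 4.638, 3.605, 3.817 and 3.94% in the day 0 libraries.

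Outside the lists, the genes of largest rise among those with at least 8 CPM and no overlap included enzymes and transporters. DIO3, the deiodinase that inactivates thyroid hormone, had 82.9, 63.5, 69 and 56.4 CPM at day 2, against 0.0699, 0.2, 0 and 0 CPM at day 0 (log2 fold change 9.73 ± 0.73, edgeR adjusted p = 4.77e-10, and 11.01 without day 0 replicate 2). SLCO2A1, a prostaglandin transporter, followed with 438, 432, 503 and 310 CPM at day 2, against 1.33, 0.599, 0.659 and 0.538 CPM at day 0 (log2 fold change 9.05 ± 0.61, edgeR adjusted p = 8.21e-11). PRTG, which encodes the membrane protein protogenin, had 946, 982, 1110 and 496 CPM at day 2, against 2.38, 2.2, 2.49 and 2.38 CPM at day 0 (log2 fold change 8.54 ± 0.63, edgeR adjusted p = 3.58e-10). All 3 were nearly silent at day 0 and high in every day 2 library, with replicate 4 the lowest of day 2.

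WLS, which carries WNT proteins to the cell surface, rose beside the WNT ligands, with 298, 295, 350 and 339 CPM at day 2, against 0.419, 1.93, 1.03 and 0.846 CPM at day 0 (log2 fold change 8.22 ± 0.35, edgeR adjusted p = 6.16e-14). The remaining 8 of these 12 genes were GAD1, SP6, ZAP70, ATP12A, PLA2G2A, CNTFR, PLXNA2 and WNT5A-AS1, with log2 fold changes between 7.44 and 8.68. WNT5A-AS1 lies within WNT5A on the other strand, and their reads cannot be told apart.

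Among the 12 genes of largest fall outside the lists, with the same limits on CPM and overlap, ADM, which encodes the vasodilator peptide adrenomedullin, had 1.06, 1.21, 1.99 and 0.97 CPM at day 2, against 352, 89.6, 84.3 and 98.5 CPM at day 0 (log2 fold change -6.91 ± 0.76, edgeR adjusted p = 1.57e-07). Day 0 replicate 1 held several times the level of the other day 0 libraries, and without it the log2 fold change was -6.13 (edgeR adjusted p = 2.17e-07). AADACL3 fell furthest of the genes outside the lists that met these limits, with 0.0626, 0.151, 0 and 0.0606 CPM at day 2, against 42.6, 52.8, 37.7 and 52 CPM at day 0 (log2 fold change -9.24 ± 0.44, edgeR adjusted p = 3.63e-12). The noncoding RNA LNCPRESS1, known from human pluripotent cells, had 0.25, 0.68, 0.536 and 0.728 CPM at day 2, against 159, 124, 131 and 141 CPM at day 0, and no library of day 2 reached the day 0 range. KLHDC7A, AC027288.1, the actin gene ACTA1, FAM110C, APELA, ITPRID1, the metallothionein gene MT1H and COL12A1 were also among them, between -8.61 and -6.84.

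Of genes without any count at day 0, HAND1 held the most counts at day 2, followed by EVX1-AS, AC004080.1, HOXB-AS3, MSGN1, FOXF1, LINC01198 and GATA6-AS1. EVX1-AS had 159, 130, 145 and 134 CPM at day 2, at least 2650-fold higher against the floor, and it overlaps EVX1 on the opposite strand. Of genes without any count at day 2, MAB21L4 held the most counts at day 0, with 46.8, 0.932, 0.879 and 2.77 CPM, at least 256-fold lower at day 2 against the floor, most of it in replicate 1. LINP1, a noncoding RNA, had 6.29, 9.52, 6.81 and 10.9 CPM over the day 0 libraries and was at least 164-fold lower, without such an imbalance. MMP10, TNFAIP6, CXCL8, AC083829.1, GPR1 and STMN4 were the others, CXCL8 with 15.9, 0.133, 0.0733 and 0.231 CPM at day 0 and not tested.

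Per length, the largest absolute changes were in abundant transcripts. NTS, which encodes the peptide neurotensin, had 1121 ± 63.2 RPKM at day 2 and 22.7 ± 9.51 RPKM at day 0 (mean ± SD, n = 4 each; log2 fold change 5.62 ± 0.48, edgeR adjusted p = 2.8e-09). FTL, the light chain of ferritin, had 2134 ± 344 RPKM at day 2 and 1151 ± 35.4 RPKM at day 0 (log2 fold change 0.89 ± 0.18, edgeR adjusted p = 0.000381). GJA1, which encodes the gap junction protein connexin 43, had 1062 ± 42.4 RPKM at day 2 and 466 ± 105 RPKM at day 0 (log2 fold change 1.19 ± 0.24, edgeR adjusted p = 0.000294). MIXL1 and 4 mitochondrial genes completed the 8 largest rises.

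The 8 largest falls per length were in ACTB, DNMT3B, AC006064.4, AL117348.1 and 4 mitochondrial transfer RNA genes. ACTB, a cytoplasmic actin gene often used to normalise expression, had 1489 ± 39.3 RPKM at day 2 and 2114 ± 112 RPKM at day 0 (log2 fold change -0.51 ± 0.13, edgeR adjusted p = 0.00224). It had 4800, 4850, 4590 and 4800 CPM at day 2, against 7320, 6750, 6390 and 6640 CPM at day 0, so every day 2 library was lower. AL117348.1 (chr1:225936411-225937557, strand minus) overlaps LEFTY2 (chr1:225936598-225941489, strand minus) on the same strand, and AC006064.4 overlaps GAPDH on the opposite strand, so neither can be told apart from its neighbour. ACTB, FTL and GAPDH have many processed pseudogenes, between which reads may have been split.

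The change of the KO line was then set against that of the WT line, as the design of the series asks which transcripts depend on RUNX1. For the difference of the changes, KO minus WT, 0 of 21612 genes (0%) passed an adjusted p under 0.05, the smallest edgeR adjusted p being 0.851, and 925 genes (4.28%) had an unadjusted p under 0.05. In the WT line 4799 genes (22.2%) were higher and 4940 (22.9%) lower at day 2. The 7736 genes called in both lines with the same sign were 82.7% of the KO calls and 79.4% of the WT calls. With opposite sign 6 genes were called, AC017083.2, EEF1A1P7, GMFB, GNA13, LUZP6 and PMCH, of which all but PMCH lost their KO call without single libraries. The 1613 genes called in KO alone are not shown to differ, since the difference itself passed for none.

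For the genes of the lists the changes lay close together. Of 302 list genes with more than 3 counts in each of the 4 groups, 205 were called in KO, 199 of these were called in WT with the same sign and 0 with the opposite sign. The median absolute difference of the log2 fold change was 0.186, and it exceeded 1 for 10 genes. The differences for the 3 marker genes were 0.71 ± 0.99 for MESP1, -0.87 ± 1.93 for TBXT and -0.34 ± 0.97 for SOX2, each smaller than its standard error, and the size of those errors limits what could be seen in single genes. Of the 344 list genes tested, 3 had an unadjusted p under 0.05, MT-ND4, MT-ND4L and MT-ND2. The difference for MT-ND4 was -0.50 ± 0.20 (edgeR unadjusted p = 0.0188), and none of the 3 passed adjustment.

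**Figure D5:**
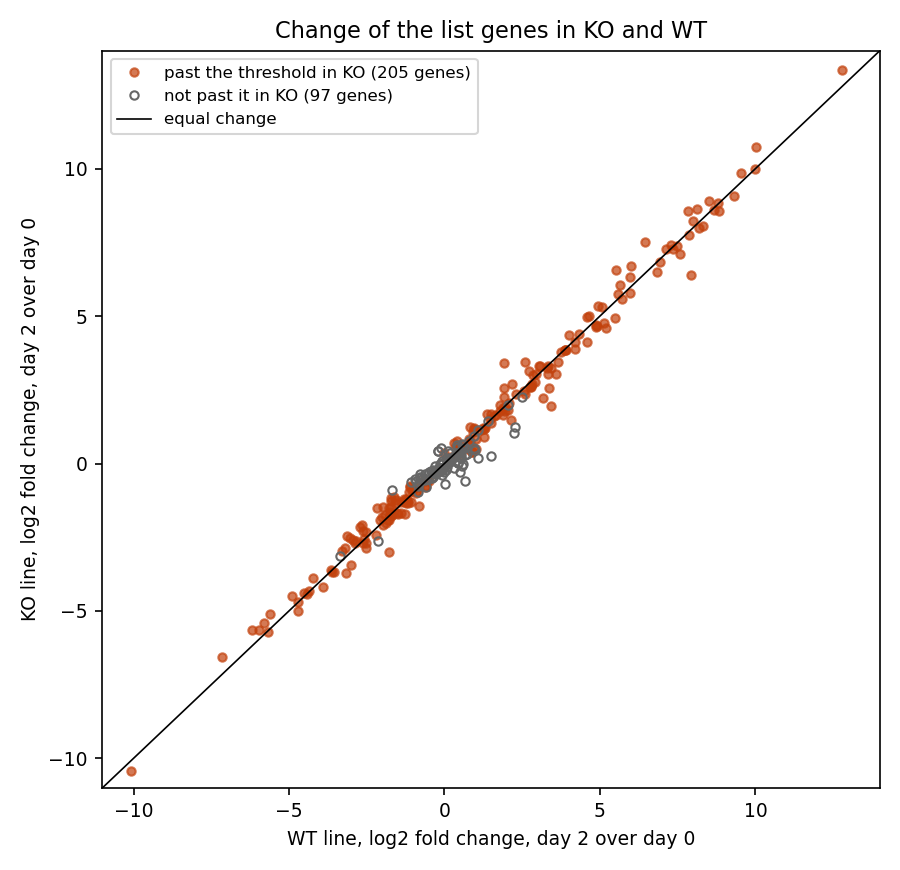
Log2 fold change, day 2 over day 0, in the KO line (vertical axis) against that in the WT line (horizontal axis) for the 302 list genes with more than 3 counts in each of the 4 groups; filled dots are the 205 genes past the threshold in KO, open dots the other 97, and the line marks equal change. The dots lie along the line, with a median absolute difference of 0.186.

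The count of 0 differing genes moved under DESeq2 and when day 0 WT replicate 1 was left out. DESeq2 called 2 genes, UBE2D3 and ARFIP1, edgeR called 42 without day 0 WT replicate 1, and 9 without replicate 1 of day 0 in both lines, all of them with a higher change in KO. SRP9, a subunit of the signal recognition particle, was among the 9, with 92.8, 84.6, 95.2 and 78.8 CPM in day 2 KO, 68.3, 68.9, 87.6 and 44.7 CPM in day 0 KO, 43.1, 48.2, 50.8 and 37.1 CPM in day 2 WT and 38.4, 81.8, 104 and 86.4 CPM in day 0 WT. In KO the days overlapped with day 2 mostly above, and in WT the day 2 libraries were below 3 of the 4 day 0 libraries. The other 8 were AC017083.2, MOB4, SGO2, TMEM123, ETFRF1, NDUFA5, SUZ12 and FAM3C. The count stayed at 0 when any other single library of these 4 groups was left out, and with a replicate block within each day. Day 0 WT replicate 1 stood apart in its group as KO replicate 1 did, with 2201 genes more than 1 log2 unit from the others. EGR1 had 107 CPM in day 0 KO replicate 1 and 105 CPM in day 0 WT replicate 1.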

How the data were processed

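RNA-seq was deposited for the whole series as 2 tables of the same libraries. The first holds raw fragment counts per gene, made by the authors with cutadapt 1.18, featureCounts and R 3.2.2 on GRCh38, per the submitters' processing notes. The sources used here do not give the aligner or the strand setting. The second table of the authors holds log2 RPKM values, handled here as a score and used for levels per length and for 1 alternative test. Of 58302 gene IDs 58039 were named from the GENCODE 29 annotation.

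Samples were grouped by title, because the genotype entry of day 2 disagrees with it. The deposited counts of 24 unsorted mesoderm libraries (day 0, 2 and 4 of both lines) were fitted together, 1 mean per group, with the quasi-likelihood F test of edgeR 4.0.16 in R 4.3.3. TMM factors were used, with the filter filterByExpr (minimum count 10, minimum total 15), and p-values were adjusted by Benjamini-Hochberg over 21612 genes. The procedure was tested on simulated data. Standard errors are the absolute log2 fold change over the square root of F. Fitted fold changes are printed where both groups held over 3 counts with all their libraries. Values without a library are fitted also where the day 0 libraries left held 3 counts or fewer. That was so for APLNR, GATA4 and DIO3, and the size of those values is uncertain. With 1 to 3 counts the ratio of counts has an exact 95% interval, and with no count a floor of 3 counts over the group gives a bound. These intervals cover counting error only, since fragments carry no molecular identifiers.

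The gene lists and their members were chosen with earlier results of these data known. Genes outside the lists were named by rank: the 12 highest and 12 lowest log2 fold changes among called genes with a mean of at least 8 CPM in the higher group and no overlap, the 8 largest rises and falls in mean RPKM, and the 8 most read genes without any count at 1 of the days. HSD17B7P2, singled out in the earlier account, was added. Names with opposite signs in the lines, and those called for the difference under other settings, were chosen after their values were seen. Alternatives were size factors of DESeq2 in edgeR, no filter, DESeq2 1.42.0, limma 3.58.1 on the log2 RPKM, the compared groups alone, a replicate block and each library left out. Some genes of the lists and ranks are not reported here by name. Equal replicate numbers paired the lines at day 0, where deviations from the group mean correlated at 0.821, 0.556, 0.512 and 0.293 for numbers 1 to 4 in KO and WT, but not at day 2 (0.106, 0.308, 0.061 and 0.091), and the labels name no shared batch. A replicate block within each day and leaving out 2 libraries together were chosen after seeing the data. Promoters and their motifs come from RefSeq on GRCh38.p14.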

Additional observations from a re-analysis of the deposited data

Results flagged for a closer look

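Dixon's 95% limit for groups of 4 was applied to 75 of the genes described, at both days, and to library totals and mitochondrial shares. Other genes described above, such as ETV2 and CXCR4, were not among the 75, so the counts of flags do not cover them. The highest or lowest library lay apart from the other 3 by more than the limit in 20 of 154 groups (13%). The limit is set to flag about 1 in 20 groups of independent, normally distributed values. The groups here share libraries, and some hold reads in 1 library alone, so the 13% cannot be set against that rate. Day 2 replicate 4 accounted for 7 of these. It was low for HAND1 at 306 CPM, HOXB6 at 17.9 and WNT5A at 564 CPM, and high for PRDM14 at 4.91, PODXL at 320, DNMT3B at 571 and FOXA2 at 0.0606 CPM. Day 2 replicate 1 was high for GREM1 at 4.26 CPM. Day 0 replicate 1 accounted for 10. It was high for SOX2 at 314 CPM, EOMES at 2.31, CDX2 at 0.21, NKD1 at 7.83, FZD7 at 1320, GREM1 at 156, SNAI2 at 2.59 and ADM at 352 CPM, and low for ID2 at 2.59 and FTL at 1050 CPM. At day 0, replicate 2 was high for EVX1 at 0.0666 CPM, and replicate 3 for GSC at 0.147 CPM. For EVX1, GSC, CDX2 and FOXA2 the library that stood apart was the only one of its 4 with a read, which is 1 to 3 counts.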

How the results depend on the processing

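Over all alternatives the number of genes higher in day 2 than in day 0 KO libraries lay between 4147 and 5058 and the number lower between 4112 and 5346, with 4147 to 4512 higher and 4145 to 4489 lower when single libraries were left out. Under each setting, 84.9 to 98.6% of the 9355 calls were kept, and 0 of those kept changed sign. Of 396 named genes tested, 292 were called, 239 of them under every setting, and 62 of 5933 gene and setting pairs changed sign, all of genes not called. Counts of list members moved by more than 1.5 times as follows, the cause being not tested. With limma-trend, HOX and CDX genes higher were 14 in place of 22, mitochondrial genes higher 0 in place of 4, NOTCH genes lower 3 in place of 6, matrix genes lower 3 in place of 5, mesenchymal genes lower 1 in place of 2, endoderm genes lower 2 in place of 1, and epithelial genes higher 1 in place of 0. With the compared groups alone, mitochondrial genes higher were 2, FGF genes higher 4 in place of 2, endoderm and p53 genes lower 2 each in place of 1, and epithelial genes higher 1. With single libraries left out, FGF genes higher were 2 to 4 and mitochondrial genes higher 0 to 7. Neural genes higher were then 1 to 2 and glycolysis genes higher 0 to 2. Immediate early genes lower were 4 to 9, NOTCH genes lower 3 to 5 and p53 genes lower 1 to 3. In the paraxial, RUNX family and mesenchymal lists 1 to 2 genes each were lower. Without day 0 replicate 1 and day 2 replicate 4 together, 4 FGF, 1 glycolysis and 8 mitochondrial genes were higher, and 0 amnion and trophoblast, 3 matrix, 3 immediate early, 1 mesenchymal and 3 p53 genes lower.

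Of the difference, KO minus WT, the 0 genes called were 2 with DESeq2, 0 to 42 with single libraries left out, and 9 without replicate 1 of day 0 in both lines. Where 1 alternative left a group at 3 libraries, the spread was pooled over the fit. Between day 2 and day 0 of KO, deviations of equal replicate numbers correlated weakly, at 0.066, 0.074, -0.003 and 0.134 for numbers 1 to 4. Replicates 1, 2 and 4 of day 2 correlated best with their own number and replicate 3 did not, so pairing by number stays unclear. With a replicate block, 4803 genes were higher and 4814 lower, FGF genes higher were 4, p53 genes lower 2, epithelial genes higher 1, and 0 genes passed for the difference. With a replicate block within each day, shared by both lines, 0 genes passed for the difference as well.

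Low counts limit genes such as TAL1, HOXB1 and SOX17, whose day 0 groups held at most 3 counts, and 4 libraries a group limit the difference between the lines.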

Other observations

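Of the p53 target genes, BAX, a promoter of apoptosis, had 123, 121, 125 and 122 CPM at day 2, against 81.2, 87.3, 87.8 and 90.9 CPM at day 0 (log2 fold change 0.50 ± 0.13, edgeR adjusted p = 0.00285). TP53I3, an oxidoreductase gene, had 61.5, 45.3, 42.7 and 32.3 CPM at day 2, against 22.3, 30.3, 26.6 and 22.5 CPM at day 0 (log2 fold change 0.84 ± 0.18, edgeR adjusted p = 0.000644). BBC3, another promoter of apoptosis, was lower, with 4.44, 3.02, 5.13 and 4.43 CPM at day 2, against 8.11, 12, 13.2 and 12.6 CPM at day 0 (log2 fold change -1.43 ± 0.29, edgeR adjusted p = 0.000403).

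Of the mitochondrial genome, 4 of 13 protein-coding genes were higher at day 2 in KO and 10 in WT. Over all genes tested 21.6% were higher in KO and 22.2% in WT. The difference itself passed for none of the mitochondrial genes.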
